A study of Mus musculus with 8 samples.

Results

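The genes examined here encode the subunits of phosphoinositide 3-kinase (PI3-kinase) and the Akt kinases that act below it. Their members were taken as every probe set, that is, every group of short array probes designed for the same transcript, whose single annotated gene symbol was Pik3ca, Pik3cd, Pik3cg, Pik3c2a, Pik3c2g, Pik3c3, Pik3r1, Pik3r3, Akt1 or Akt2. This gave 18 probe sets of 9 genes, out of 22626 probe sets and 12393 genes on the array. Pik3r3, which encodes a regulatory subunit, was not analysed here because the annotation used gave no probe set to it alone. The genes were picked for their place in the pathway, with earlier results of these data known.

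Gene expression was measured on 8 Affymetrix arrays of ventral prostate, the ventral lobe of the mouse prostate, from FVB males aged 8 weeks. In 4 arrays the mice carried a transgene for polyoma virus middle T antigen (MT), and the other 4 were wild type. The design sets MT-induced prostate cancer against normal prostate. The labels and design text used here do not name the promoter that drives the transgene, and they also do not say whether each array is a separate animal, so p-values measure the spread between these arrays, which may be technical.

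PI3-kinases phosphorylate inositol lipids in membranes. Class I enzymes pair a catalytic subunit with a regulatory subunit that binds phosphotyrosine on activated receptors and adaptors, and the lipid they make recruits Akt to the membrane, where it is activated and promotes growth and survival. Class II and class III enzymes make other inositol lipids and act mainly in endocytosis, vesicle traffic and autophagy. Middle T is a membrane-bound viral protein that, once phosphorylated on tyrosine by Src-family kinases, binds the regulatory subunit of class I PI3-kinase. The arrays measured transcript levels and not the binding or activity of these proteins.

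Values are log2 RMA intensities, in which a difference of 1 is a doubling. Array medians lay between 6.21 and 6.23, and the correlation of arrays was 0.996 to 0.997 for MT pairs, 0.992 to 0.994 for wild-type pairs and 0.968 to 0.973 for pairs across the groups. The 3′ minus 5′ signal of the Gapdh control, which grows as RNA is shortened, was 0.45 to 0.64 in MT and 0.54 to 0.92 in wild type. That of Actb was 0.57 to 0.85 in MT and 0.71 to 1.05 in wild type. As a measure of background, 27 control probe sets for bacterial transcripts were used, without the spikes added at hybridisation. Whether any of these transcripts was added to the RNA earlier was not checked, so the level they give may lie above background. The highest of the 27 read 5.55 to 5.86 over the arrays. This was a phe control of an older design, and the highest of the other 26 read 3.99 to 4.55.

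Marker genes of several cell types differed between the groups, and in bulk tissue fewer cells of a type and less RNA per cell cannot be told apart. As a check of the tissue, Spink1, a secretory gene of the ventral prostate, averaged 10.77 in MT and 13.81 in wild type, and the seminal vesicle genes of the neighbouring gland averaged 3.55 to 3.69 in MT and 3.58 to 3.75 in wild type, all 6 below the highest control in both groups. All 7 luminal epithelial markers rose, with a mean level of 11.9 to 12.0 in MT and 11.0 to 11.1 in wild type, led by Cldn4 and Cd24a. Smooth muscle markers fell in 9 of 9, with a mean level of 8.01 to 8.76 in MT and 8.97 to 9.65 in wild type, and fibroblast markers fell in 7 of 8, with 7.51 to 8.03 in MT and 8.41 to 9.14 in wild type. Basal epithelial markers fell in 3 of 4. Endothelial markers fell in 1 of 7, with 5 of the 7 under the highest control in both groups. All 3 adipocyte markers measured fell, with a mean level of 4.93 to 6.39 in MT and 5.69 to 8.45 in wild type, and 1 fell without MT array 1, MT array 3 or MT array 4. Leukocyte markers rose in 9 of 12, with a mean level of 6.41 to 6.74 in MT and 5.69 to 6.04 in wild type. Among these, Ptprc, the common leukocyte antigen, averaged 6.67 in MT and 4.86 in wild type, the wild-type mean being under the highest control. Of the 61 marker genes 72.1% passed the test, against 40.0% of all genes (19.3% higher, 20.7% lower). The part of these shifts in the results below was not tested.

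The comparison of MT with wild type asked which PI3-kinase and Akt transcripts differed. By limma across all probe sets, at an adjusted p under 0.05, 5 of the 18 probe sets were higher in MT and 2 were lower. These 7 make 38.9%, against 37.8% of all probe sets (18.1% higher, 19.7% lower), so the share called is near that of the whole array and is no result about these genes. The groups did not overlap in 6 of the 18, against 37.5% of all probe sets. The median log2 fold change was 0.11 over the 18 and -0.01 over all probe sets. The rises numbered 3 without MT array 1, 2 without MT array 3, 3 without MT array 4 and 4 without any other single array. Apart from Pik3c2g, no member differed by more than 0.54. With each gene counted by its probe set of highest mean, 3 of 9 genes were higher (Akt2, Pik3c2a and Pik3cg) and 1 was lower (Pik3c2g), or 44.4% against 40.0% of all genes.

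**Figure D1:**
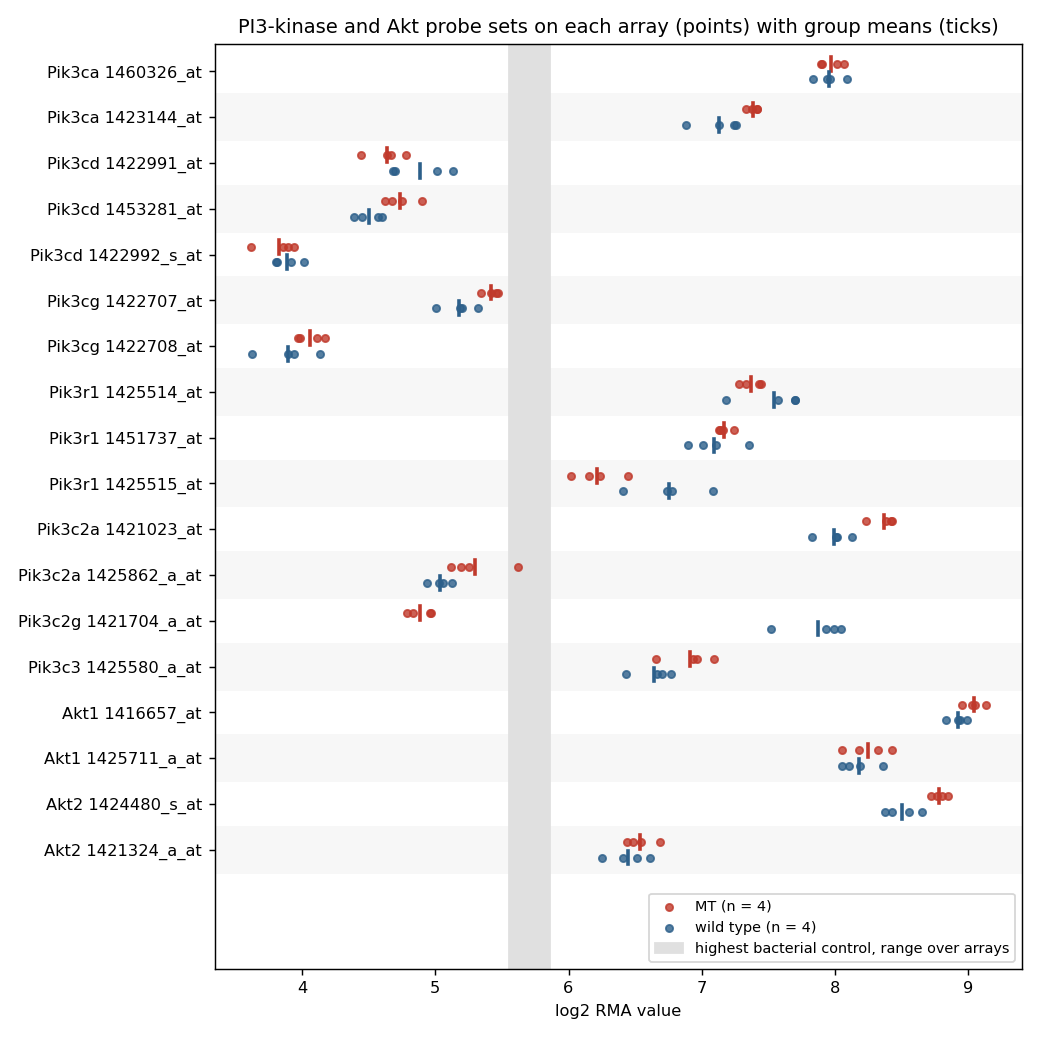
Each row is a probe set, with the log2 RMA value of every MT array (red points, n = 4) above that of every wild-type array (blue points, n = 4) on the x axis; ticks are group means and the grey band is the range over arrays of the highest bacterial control. Pik3c2g is the row in which the groups stand far apart, near 4.89 in MT and 7.88 in wild type, and the rows of Pik3cd and Pik3cg lie left of the grey band.

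Pik3c2g, a class II PI3-kinase known for a narrow tissue range that includes liver, gave by far the largest difference of the set. Probe set 1421704_a_at read 4.96, 4.97, 4.83 and 4.79 in the 4 MT arrays, against 7.52, 7.94, 8.05 and 7.99 in the 4 wild-type arrays. Every MT array lay more than 2 units under every wild-type array. The means were 4.89 ± 0.09 in MT and 7.88 ± 0.24 in wild type (SD, n = 4 each), a log2 fold change of -2.99 ± 0.11 (SE), with a 95% interval of -3.23 to -2.75 and an adjusted p of 1.33e-08 (limma). It ranked 17 by size among all probe sets that were lower in MT. All 4 MT values lay under the highest bacterial control, so the transcript was at least 4.58-fold lower in MT when the MT arrays are set to that control's mean of 5.68. Against the other 26 controls the MT values stood above background, and the measured ratio of 7.94-fold lower applied. Leaving out any array gave -3.11 to -2.93.

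The window around each annotated start of Pik3c2g and of Pik3c2a is printed because these class II kinases gave the largest fall and the largest rise among the members that passed the test. Each holds 250 bases before and 50 after the start, from RefSeq on build GRCm38.p6, read 5′ to 3′ on the gene's strand, with CpG dinucleotides in capitals. RefSeq gives Pik3c2g 2 such starts, at chr6:139613822-139614121 and chr6:139841195-139841494 on the plus strand, and Pik3c2a 1, at chr7:116443409-116443708 on the minus strand.
Pik3c2g, upstream start: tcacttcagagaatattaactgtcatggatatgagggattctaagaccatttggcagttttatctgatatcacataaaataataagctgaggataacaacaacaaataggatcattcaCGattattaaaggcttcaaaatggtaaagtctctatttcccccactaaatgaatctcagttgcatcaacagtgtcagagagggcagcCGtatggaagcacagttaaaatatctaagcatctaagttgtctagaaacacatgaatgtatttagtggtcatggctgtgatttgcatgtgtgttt
Pik3c2g, downstream start: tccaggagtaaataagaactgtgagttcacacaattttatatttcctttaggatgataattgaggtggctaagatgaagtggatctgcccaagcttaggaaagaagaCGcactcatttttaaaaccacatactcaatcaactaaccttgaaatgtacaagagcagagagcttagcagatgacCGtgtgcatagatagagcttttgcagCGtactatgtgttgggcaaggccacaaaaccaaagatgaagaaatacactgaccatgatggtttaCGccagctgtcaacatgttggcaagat
Pik3c2a: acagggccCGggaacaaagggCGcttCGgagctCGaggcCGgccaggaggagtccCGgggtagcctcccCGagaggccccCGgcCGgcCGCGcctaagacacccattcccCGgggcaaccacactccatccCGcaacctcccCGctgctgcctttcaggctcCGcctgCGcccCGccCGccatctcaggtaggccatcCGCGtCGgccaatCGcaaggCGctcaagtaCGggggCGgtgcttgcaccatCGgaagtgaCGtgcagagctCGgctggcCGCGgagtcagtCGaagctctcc

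The Pik3c2g windows held 2 and 4 CpG dinucleotides at a GC content of 36.0% and 40.7%. The Pik3c2a window held 31 at a GC content of 70.3%, and 90.5% of the 32817 promoter windows in the table held as few or fewer. The same shares were 23.3% and 38.1% for the upstream and downstream Pik3c2g windows. Both strands were searched for short motifs, none of which contains another. The androgen receptor half-site, AGAACA, stood in 19.0% of all windows, and a forkhead motif, GTAAACA, in 3.65%. A core promoter motif known as the TATA box, TATAAA, stood in 13.6%. The motif named after its letters, CCAAT, stood in 37.4%, and a motif bound by Sp1, GGGCGG, in 35.6%. The downstream Pik3c2g window held 1 TATAAA, and none of the other letters searched was in either Pik3c2g window. That match lies on the opposite strand, as TTTATA in the printed letters, near the end of the window far from the start. The Pik3c2a window held 1 CCAAT as well as 2 copies of GGGCGG. These matches describe the letters in the window and no methylation or factor binding was measured.

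The genes whose profile over the 8 arrays lay nearest to that of Pik3c2g were Spink1, Cela1, Trpv6, Azgp1 and Crabp1, as a description of array values that all share the split between MT and wild type. Nearness was the Euclidean distance between values centred on each gene's mean, and it ran from 0.50 for Spink1 to 0.76 for Crabp1. Spink1, a secreted trypsin inhibitor, averaged 10.77 in MT and 13.81 in wild type. Cela1, an elastase-like serine protease, averaged 5.85 in MT and 8.74 in wild type. Trpv6, an epithelial calcium channel, averaged 6.82 in MT and 9.89 in wild type. Azgp1, a secreted zinc-binding glycoprotein, averaged 8.33 in MT and 11.08 in wild type. Crabp1, a retinoic acid carrier, averaged 6.66 in MT and 9.67 in wild type. Spink1 and Azgp1 also stand among the 5 measured ventral prostate secretion markers, with a mean level of 9.74 to 10.4 in MT and 12.2 to 12.5 in wild type. Of these 5 markers 4 fell, and 1, Tmprss2, rose by 0.31 (limma, adjusted p = 0.0178), a call lost without MT array 2. The luminal epithelial markers, in contrast, were all higher in MT.

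**Figure D2:**
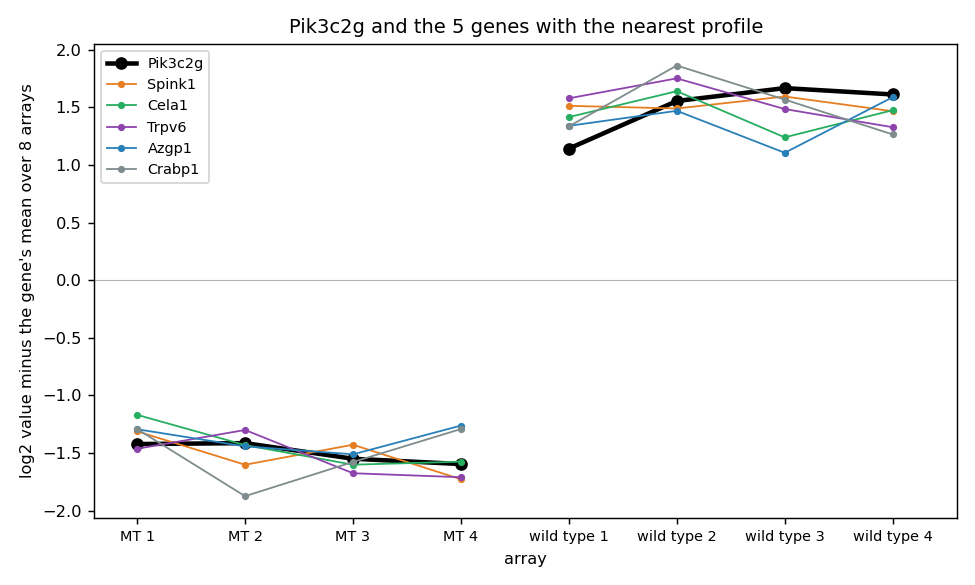
The y axis is the log2 value minus the gene's mean over 8 arrays, and the x axis lists the 4 MT and then the 4 wild-type arrays. Pik3c2g (black) and the 5 nearest genes (colours) sit below their mean on every MT array and above it on every wild-type array.

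Pik3c2a, a broadly expressed class II kinase that works in clathrin-coated endocytosis, rose. Probe set 1421023_at read 8.42, 8.38, 8.43 and 8.24 in MT, against 8.02, 7.83, 8.13 and 8.01 in wild type, and every MT array lay above every wild-type array. The means were 8.37 ± 0.09 in MT and 7.99 ± 0.12 in wild type (SD, n = 4 each), a log2 fold change of 0.37 ± 0.08 (SE; 95% interval 0.20 to 0.55, limma adjusted p = 0.00323). Its other probe set, 1425862_a_at, was dim, at 5.19, 5.25, 5.62 and 5.12 in MT and 5.12, 5.03, 4.93 and 5.06 in wild type. The groups overlapped there by MT array 4 and wild-type array 1, the adjusted p was 0.0709, and it was 0.0443 without MT array 4.

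Both class II kinases can be set against each other within each array. With Pik3c2g set to the highest bacterial control on the MT arrays, Pik3c2a minus Pik3c2g was at least 2.68 ± 0.09 in MT, against 0.12 ± 0.26 in wild type (log2, SD, n = 4 each). The gap was thus wider in MT by at least 2.57, with no overlap between the groups. An exact permutation test, with 70 ways of placing the arrays in groups, gave p = 0.0286, two-sided, the smallest that 4 against 4 arrays allow. Adjusted over the 6 pairs of members compared, p was 0.0857 on the measured values, which did not pass the threshold. No pair alone could pass after that adjustment with 4 arrays a group, so the adjusted test cannot decide here. The probes differ in affinity, so only the change in the difference is read here, not which kinase was more abundant.

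Pik3ca, the catalytic subunit alpha found in most cell types, differed little. Its brighter probe set, 1460326_at, read 8.07, 8.02, 7.90 and 7.91 in MT and 8.09, 7.96, 7.94 and 7.84 in wild type, and the groups were interleaved. The log2 fold change was 0.01 ± 0.07 (SE), with a 95% interval of -0.15 to 0.18 (limma, adjusted p = 0.900). Its other probe set, 1423144_at, read 7.38, 7.41, 7.34 and 7.42 in MT, against 6.88, 7.24, 7.26 and 7.13 in wild type, with every MT array higher. That was a rise of 0.26 ± 0.09 (SE), with an adjusted p of 0.0347, which went to between 0.0547 and 0.0811 when any MT array, wild-type array 1 or wild-type array 4 was left out. The gap between both probe sets changed by -0.24, which did not pass (exact permutation p = 0.0571, adjusted over 9 pairs of probe sets of the same gene 0.257).

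Pik3cd and Pik3cg encode the catalytic subunits delta and gamma, which are known mainly from leukocytes, the gamma enzyme acting below G protein-coupled receptors. All 5 of their probe sets had both group means under the highest bacterial control, and 3 of the 5 stood above the other 26 controls. They are therefore described by their log2 levels.

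Pik3cg probe set 1422707_at rose, at 5.47, 5.34, 5.45 and 5.42 in MT, against 5.32, 5.01, 5.18 and 5.20 in wild type. Each MT array lay above each wild-type array (limma, adjusted p = 0.0258), and the call was lost, at 0.0559 to 0.0674, without MT array 1, 3 or 4 or without wild-type array 2. The other Pik3cg probe set, 1422708_at, read 3.98, 4.17, 3.97 and 4.11 in MT and 4.14, 3.94, 3.89 and 3.62 in wild type, which overlapped (adjusted p = 0.25).

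Pik3cd probe set 1453281_at rose as well, at 4.67, 4.62, 4.90 and 4.75 in MT, against 4.57, 4.60, 4.39 and 4.45 in wild type, with no overlap. Its adjusted p was 0.0387 by limma, and 0.0518 to 0.114 without MT array 1, 3 or 4 or without wild-type array 3 or 4. The brightest Pik3cd probe set, 1422991_at, had the opposite sign, at 4.78, 4.64, 4.67 and 4.44 in MT and 4.70, 4.68, 5.13 and 5.02 in wild type (adjusted p = 0.108). The third, 1422992_s_at, averaged 3.83 ± 0.14 in MT and 3.89 ± 0.10 in wild type (SD, n = 4 each; adjusted p = 0.621). The probe sets of Pik3cd thus did not share a direction. Beside both genes stand the leukocyte markers, 9 of 12 of which rose, and 4 of those 12 were under the highest control in both groups.

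Of the 6 pairs of members compared within arrays, those with Pik3cd or Pik3cg rest on levels under the highest control, and no change is read from them.

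Pik3r1 encodes the main class IA regulatory subunit, in a long form and in shorter forms made from other starts, and it is the subunit through which phosphotyrosine on receptors and on middle T engages the enzyme. Probe set 1425515_at fell. It read 6.45, 6.15, 6.24 and 6.02 in MT, against 7.09, 6.74, 6.41 and 6.78 in wild type. MT arrays 2 to 4 lay under all wild-type arrays, while MT array 1 lay above wild-type array 3. The log2 fold change was -0.54 ± 0.13 (SE; 95% interval -0.83 to -0.24, limma adjusted p = 0.00821), and the adjusted p stayed between 0.00185 and 0.0488 under all 16 alternatives run on it.

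The other Pik3r1 probe sets did not pass. The brightest, 1425514_at, read 7.28, 7.34, 7.43 and 7.45 in MT and 7.70, 7.18, 7.57 and 7.70 in wild type, a log2 fold change of -0.17 ± 0.11 (SE; 95% interval -0.41 to 0.08, adjusted p = 0.275). Wild-type array 2 was the low one, and without it the value was -0.28 with an adjusted p of 0.0120. Probe set 1451737_at read 7.24, 7.14, 7.13 and 7.16 in MT and 7.35, 7.11, 6.90 and 7.01 in wild type, a log2 fold change of 0.08 (95% interval -0.13 to 0.28, adjusted p = 0.565). The gap between 1425514_at and 1425515_at changed by 0.37, which did not pass (exact permutation p = 0.143, adjusted over the 9 pairs 0.3). Which Pik3r1 transcripts each probe set reads was not examined. Pik3ca minus Pik3r1 moved by 0.18, with overlap (exact permutation p = 0.286, adjusted 0.286).

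Pik3c3 encodes the class III kinase Vps34, which makes the lipid that starts autophagosomes and marks early endosomes. Its single probe set, 1425580_a_at, read 6.66, 6.93, 6.97 and 7.09 in MT and 6.66, 6.70, 6.43 and 6.77 in wild type. MT arrays 2 to 4 were above all wild-type arrays, and MT array 1 was within them. The log2 fold change of 0.27 ± 0.10 (SE; 95% interval 0.04 to 0.50) had an adjusted p of 0.0615 by limma. It was 0.0152 without MT array 1, 0.0490 without wild-type array 4 and 0.0458 when dim probe sets were left out of the adjustment. Pik3ca minus Pik3c3 moved by -0.26 (exact permutation p = 0.200, adjusted 0.274).

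Akt1 and Akt2 are the serine-threonine kinases that bind the class I lipid product, Akt2 being the form best known from insulin-driven glucose uptake. Akt2 probe set 1424480_s_at rose, at 8.85, 8.77, 8.72 and 8.81 in MT, against 8.56, 8.66, 8.38 and 8.43 in wild type. Each MT array lay above each wild-type array by a narrow gap between MT array 3 and wild-type array 2. The log2 fold change was 0.28 ± 0.07 (SE; 95% interval 0.11 to 0.44, limma adjusted p = 0.0121). The call was kept without any single array and lost in the mean of both Akt2 probe sets (0.19, adjusted p = 0.0573) and with MT array 2 and wild-type array 4 both left out (0.26, adjusted p = 0.0635). A probe set of the _s_at type can read transcripts of more than one gene. The other Akt2 probe set, 1421324_a_at, read 6.44, 6.55, 6.69 and 6.48 in MT and 6.51, 6.61, 6.25 and 6.41 in wild type (0.09, 95% interval -0.10 to 0.29, adjusted p = 0.455).

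Akt1 did not pass with either probe set. Probe set 1416657_at read 9.13, 9.05, 9.03 and 8.95 in MT and 8.84, 8.99, 8.93 and 8.94 in wild type, and MT arrays 1 to 3 lay above all wild-type arrays. The log2 fold change was 0.12 ± 0.07 (SE; 95% interval -0.03 to 0.26, limma adjusted p = 0.195). Probe set 1425711_a_at read 8.05, 8.33, 8.43 and 8.18 in MT and 8.19, 8.37, 8.05 and 8.11 in wild type (0.07, 95% interval -0.15 to 0.28, adjusted p = 0.629). Akt1 minus Akt2 was 0.26 ± 0.07 in MT and 0.42 ± 0.13 in wild type (SD, n = 4 each), which overlapped (change -0.16, exact permutation p = 0.114, adjusted over the 6 pairs 0.229). A rise of Akt2 without one of Akt1 was therefore not shown.

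**Figure D3:**
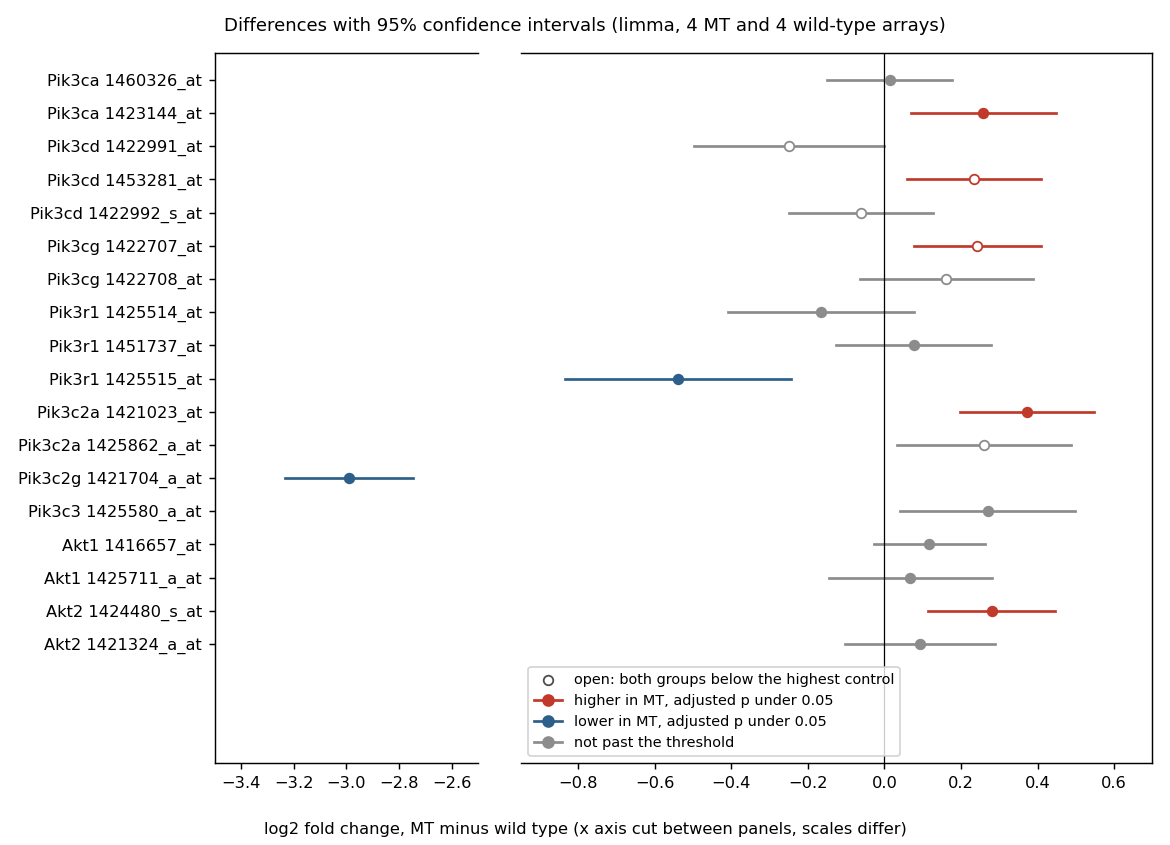
Points are log2 fold changes (MT minus wild type, x axis, cut between panels of different scale) of each probe set, with 95% confidence intervals from limma over 4 MT and 4 wild-type arrays. Red marks a rise and blue a fall at an adjusted p under 0.05, grey neither, and open points mark the 6 probe sets with both group means under the highest bacterial control; only Pik3c2g, at -2.99, lies outside -0.54 to 0.37.

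Of the 7 genes with several probe sets, 6 had some that passed and some that did not. In the 9 comparisons between probe sets of the same gene, the change in their gap was at most 0.48 in size, the smallest exact permutation p was 0.0571, and the adjusted values lay between 0.257 and 0.771. The smallest p that this test allows is 0.0286, so no pair alone could pass after adjustment over the 9 comparisons. The adjusted test therefore cannot decide whether probe sets of a gene changed unequally, and it does not show that they changed alike.

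The genes around PI3-kinase and Akt, 78 measured of 98 listed and with 1 probe set each, moved about as often as genes in general. In MT 17 were higher and 15 lower, or 41.0% against 40.0% of all genes (19.3% higher, 20.7% lower), with a median log2 fold change of 0.06 against -0.01.

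Of 15 genes listed as phosphatases and other brakes on the pathway, 7 rose and 1, Inpp5a, fell, with a median of 0.18. The falls were 2 without MT array 4, wild-type array 2 or wild-type array 3. The rises include Keap1 (0.18, limma adjusted p = 0.0399), which is not chiefly known as a brake on this pathway. Inpp5d, which encodes the mainly leukocyte 5-phosphatase SHIP1, averaged 6.46 ± 0.19 in MT and 5.86 ± 0.15 in wild type (SD, n = 4 each), a log2 fold change of 0.60 ± 0.11 (limma, adjusted p = 0.00106). Its other probe set gave -0.05 and did not pass. Inppl1, the related SHIP2, was higher by 0.49 at 9.08 ± 0.04 in MT and 8.59 ± 0.14 in wild type (adjusted p = 0.000447). Trib1, a pseudokinase of the Tribbles family, was higher by 0.54 (adjusted p = 0.00273), and Ppp2r2a, a regulatory subunit of protein phosphatase 2A, by 0.37 (adjusted p = 0.00259). For both, other probe sets did not pass. Of the 3 other PI3-kinase genes measured, Pik3ap1, an adaptor known from B cells and myeloid cells, rose, at 5.83 ± 0.12 in MT and 5.34 ± 0.16 in wild type, the wild-type mean being under the highest bacterial control (adjusted p = 0.00165). Leukocyte markers rose beside Inpp5d and Pik3ap1, and their part was not tested. The regulatory genes Pik3r2 (-0.07, adjusted p = 0.429) and Pik3r4 (-0.06, adjusted p = 0.685) did not pass.

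Among 12 receptors and adaptors that recruit PI3-kinase, 2 rose and 1 fell, with a median of 0.08. Erbb3, a receptor with several docking sites for the regulatory subunit, averaged 9.67 ± 0.06 in MT and 9.06 ± 0.02 in wild type (SD, n = 4 each), higher by 0.61 ± 0.06 (limma, adjusted p = 1.66e-05), and its other probe set rose too. Gab1, a docking adaptor, was higher by 0.36 (adjusted p = 0.00175), with 2 of its 3 probe sets passing. Irs1, the insulin receptor adaptor, was lower, with a log2 fold change of -0.38 (adjusted p = 0.00119).

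Of 11 genes for Akt activation, 1 rose and 2 fell, with a median of 0.06. Mtor, the kinase of both mTOR complexes, had a log2 fold change of -0.29 (limma, adjusted p = 0.00312), and its other probe set did not pass, at -0.02. Hsp90aa1, a chaperone that binds Akt, was higher by 0.54 (adjusted p = 0.0199), and all 3 of its probe sets rose. The call of this probe set was lost without MT array 1, 2 or 4 (0.0512 to 0.0533). In the list of 11 genes, the rises were 2 without wild-type array 3, and the falls were 3 without MT array 1. Prr5, a partner in mTOR complex 2, fell at a level under the highest bacterial control in both groups, 3.63 ± 0.19 in MT and 4.01 ± 0.12 in wild type (adjusted p = 0.0120).

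Of 18 genes of mTOR complex 1 and of Akt substrates, 3 rose and 5 fell, with a median of -0.07, and without MT array 2 or without MT array 3 the count of rises was 1 and that of falls 4. By the probe set of highest mean, Rps6 and Eif4ebp1 gave the largest falls of the named pathway genes. Rps6, the ribosomal protein phosphorylated below mTOR complex 1, averaged 7.48 ± 0.11 in MT and 8.61 ± 0.07 in wild type (SD, n = 4 each), a log2 fold change of -1.12 ± 0.07 (limma, adjusted p = 7.15e-07). Ribosomal protein genes have many near-identical copies, and a second Rps6 probe set gave -0.26 and did not pass. Eif4ebp1, a translation repressor that mTOR complex 1 inactivates, averaged 10.04 ± 0.05 in MT and 10.95 ± 0.10 in wild type (-0.91 ± 0.07, adjusted p = 2.11e-06), and all 3 of its probe sets fell. Rheb, the small GTPase that switches mTOR complex 1 on, changed by -0.62 (adjusted p = 7.13e-05). Deptor, an inhibitor of mTOR, changed by -0.53 (adjusted p = 0.000233), and all 3 of its probe sets fell, at -1.03 to -0.35.

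Of 10 genes of the Vps34 complexes and of the start of autophagy, 1 rose and 4 fell, with a median of -0.21, and without MT array 1 the falls were 2. Nrbf2, a subunit of the autophagy form of the Vps34 complex, averaged 8.52 ± 0.04 in MT and 9.23 ± 0.16 in wild type (SD, n = 4 each; -0.71 ± 0.08, limma adjusted p = 5.19e-05). Wipi1, which binds the lipid that Vps34 makes, changed by -0.70 (adjusted p = 7.61e-05), and all 5 of its probe sets fell. Becn1, the Vps34 partner Beclin 1, changed by -0.28 (adjusted p = 0.0260) and lost its call when any array but MT array 2 or wild-type array 3 was left out (0.0534 to 0.0661), and 2 of its 4 probe sets fell. Atg14, which directs the complex to autophagy, was higher by 0.49 (adjusted p = 0.00270). Genes of the same complex as Pik3c3 thus differed in direction.

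Of 10 other phosphoinositide kinases, 2 rose and 2 fell, with a median of 0.06. Pi4k2b, a type II phosphatidylinositol 4-kinase, changed by -0.58 (limma, adjusted p = 0.000841), and all 3 of its probe sets fell. Pi4ka, another phosphatidylinositol 4-kinase, changed by -0.30 (adjusted p = 0.00381) and by -0.14 in the mean of its probe sets, which did not pass (adjusted p = 0.0969). Pip5k1c, which makes the substrate of class I PI3-kinase, was higher by 0.37 (adjusted p = 0.0118), and its other probe set, at 0.09, did not pass. Pip4k2a was higher by 0.28 (adjusted p = 0.0136), and all 3 of its probe sets rose. Its brightest probe set averaged 5.99 in MT and 5.71 in wild type, the wild-type mean being just under the highest bacterial control.

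**Figure D4:**
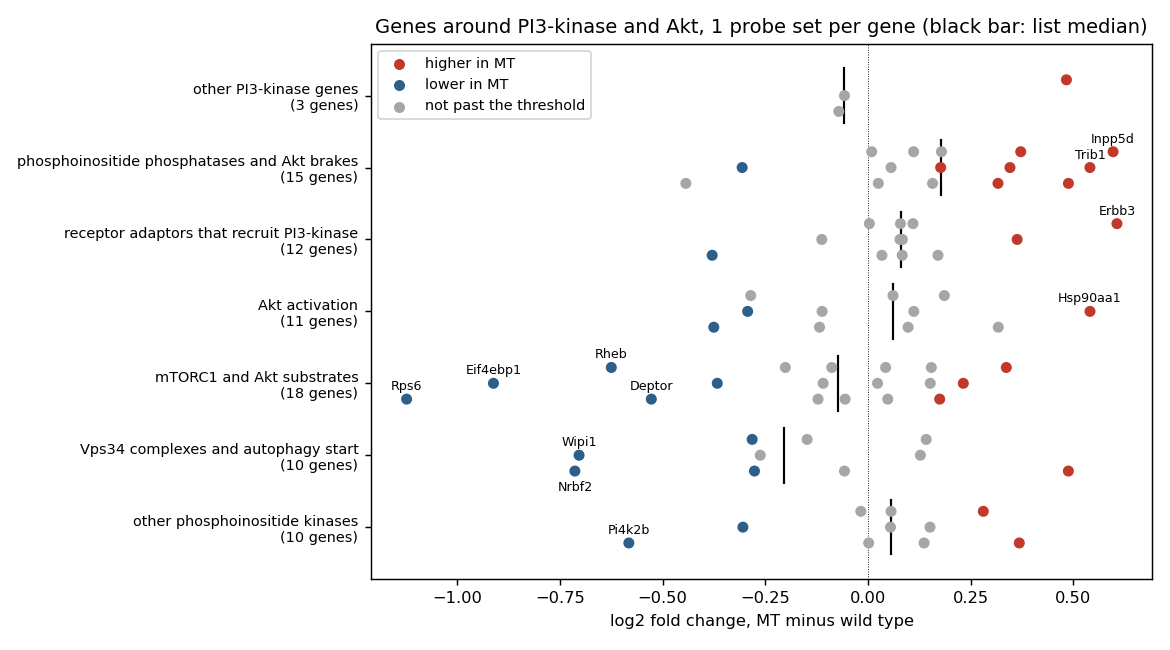
Each point is a gene, by its probe set of highest mean, at its log2 fold change (x axis, MT minus wild type), in rows of pathway lists with the number of genes measured; red and blue mark an adjusted p under 0.05 in limma, and black bars are list medians. Medians lie between -0.21 and 0.18, and Rps6, at -1.12, is the gene farthest from 0.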

How the data were processed

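The labels assign 4 arrays to MT and 4 to wild type. The deposited log2 values were made by the authors with RMA, per the submitters' processing notes; the version was not given in the sources read. RMA removes background, sets arrays to a common distribution by quantiles and reduces each probe set to 1 value. All 22626 probe sets other than the 64 controls were fitted without a filter or covariate in limma 3.58.1 (R 4.3.3, lmFit and eBayes, two-sided), with Benjamini-Hochberg adjustment over all and a threshold of 0.05. The platform annotation gave 20380 probe sets a single symbol, 691 several and 1555 none, and only single symbols were named. Pairs were compared within arrays by exact permutation over 70 assignments.

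On 10 simulated sets of the MT and wild-type comparison, over 22626 probe sets, 7.4% of changes of 0.25 on the log2 scale, 63.8% of 0.5 and 94.4% of 1 were recovered, with 4.80% false calls. The simulated sets held a far smaller share of changed probe sets than the 37.8% called here, which makes their adjustment stricter. Their recovery is therefore no measure of what this comparison misses. Among the members, changes near 0.25 were called in some probe sets and not in others. The number of arrays limits the precision.

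The members and lists were chosen with earlier results of these data known. Named genes were every member, up to 4 per pathway list with the largest change past the threshold, up to 2 per marker list, and the 5 nearest to Pik3c2g. Inpp5a, Keap1, Pik3r2, Pik3r4 and Tmprss2 were named after their values were seen. Alternatives were other priors, weights, scalings, filters, summaries per gene, probe set types, thresholds, left-out arrays and other bacterial controls, the last chosen after seeing the data.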

Additional observations from a re-analysis of the deposited data

How the results depend on the processing

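Pik3c2g, Pik3c2a probe set 1421023_at and Pik3r1 probe set 1425515_at kept their direction, and their call at an adjusted p under 0.05, under each alternative run on them; at a log2 fold change of at least 0.5, Pik3c2a is not called. The members' rises were 5, and 2 to 4 with an array left out, 1 with MT array 2 and wild-type array 4 left out, 1 at an adjusted p under 0.01 and 0 at a log2 fold change of at least 0.5, while the members' falls were 2, with 2 to 3 when an array was left out (3 without wild-type array 2) and 1 among the 11 probe sets of the unique type. The unique type holds fewer probe sets and the other thresholds are stricter by construction, and leaving out arrays leaves fewer samples. Over all probe sets, rises and falls were 4089 and 4463, against 2447 and 2641 by the highest probe set per gene, 2403 and 2709 by the mean per gene, 2499 and 2903 among unique probe sets, and 1783 and 1930 at a log2 fold change of at least 0.5. The Pik3c2g bound of 2.19 on the log2 scale became 2.99 with either narrower set of bacterial controls, a choice made after seeing the data. Values near 0 changed sign, and the cause was not tested. Pik3ca probe set 1460326_at gave -0.026 to 0.058 with an array left out, below 0 without MT array 1, MT array 2 or wild-type array 4, and -0.041 with MT array 2 and wild-type array 4 both left out. Pik3cd probe set 1422992_s_at, under the highest bacterial control in both groups, gave -0.099 to 0.0082 with an array left out, above 0 without MT array 4. Svs5, the brightest seminal vesicle gene, gave -0.066 to 0.073, below 0 without MT array 1, MT array 4 or wild-type array 1. The Pik3r1 gap between 1425514_at and 1451737_at became 0.066 against the mean of its other probe sets, and the Akt1 gap was -0.045 to 0.12 with an array left out, below 0 without MT array 1. Array numbers in the labels were not used as pairs in the main fit. After each probe set's group mean was subtracted, same-numbered MT and wild-type arrays correlated at 0.08, 0.16, 0.08 and 0.13. On these centred values all 8 arrays correlated best, among arrays of the other group, with their own number. That is a hint of pairing from the data only. With the number as a replicate block, 4110 probe sets were higher and 4523 lower, and 4 members rose and 2 fell, Pik3cd probe set 1453281_at going to an adjusted p of 0.0775. With 4 arrays a group, small changes can go undetected.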
